A study of Mus musculus with 13 samples.

Results

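The oxidative phosphorylation genes described here are the nuclear, protein-coding genes for the subunits of respiratory chain complexes I to IV and of ATP synthase (complex V), together with the complex I assembly factors named Ndufaf and a few tissue-restricted isoforms. They were taken by gene symbol, as those that start with Ndufa, Ndufb, Ndufc, Ndufs, Ndufv, Cox4 to Cox8, Uqcr or Atp5 and the genes Sdha, Sdhb, Sdhc and Sdhd, which gave 96 of the 21887 protein-coding genes on the placed chromosomes of the mouse annotation. The rule itself uses no measured value, although the members were chosen with earlier results of these data known. For every member the peaks of 3 chromatin features were counted where the peak centre lay within 1 kb of either annotated end of the gene. The features were acetylation of lysine 27 on histone H3 (H3K27ac), a mark of active promoters and enhancers, and NCoR and SMRT, co-repressors of nuclear receptors.

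Chromatin immunoprecipitation and sequencing (ChIP-seq) had been done on the following mouse cells. HDAC3-YF cultures were embryonic fibroblasts (MEFs) of strain C57BL/6J-OG2 that received virus for OCT4, SOX2, KLF4 and c-MYC (OSKM) and a plasmid for HDAC3-YF, the deacetylase-null Y298F mutant of the histone deacetylase HDAC3. FLAG cultures were the same MEFs with OSKM and a FLAG control plasmid, and both were profiled for H3K27ac at days 5, 9 and 13. OSKM cultures at day 9 for NCoR and SMRT came from MEFs of that strain, with no further plasmid named. Untreated MEFs of that strain were profiled for H3K27ac, and embryonic stem cells (ESCs) of strain C57BL/6J, grown in N2B27 medium with LIF, CHIR99021 and PD0325901, were profiled for H3K27ac, NCoR and SMRT. The labels name no sort of the OSKM cultures and no clone or animal behind any sample. Every group had a single library, 13 in all, of which 12 came with a peak list and the ESC input was not used here. No test between conditions could be made, and every 95% interval below covers the counting of genes only. The strain differs between ESCs and the other cells and cannot be told apart from cell type.

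The respiratory chain passes electrons from NADH through complex I, or from succinate through complex II, to complex III and on to oxygen at complex IV, and ATP synthase uses the proton gradient so built. Most subunits are encoded in the nucleus and are made in nearly every cell type, while a handful of complex IV subunits have isoforms limited to heart, muscle, lung or testis. The transcription factors NRF1, GABP (an ETS family factor), YY1 and the oestrogen-related receptors (ERR) are known to bind promoters of many of these genes. Reprogramming of fibroblasts to pluripotency is known for a shift of energy metabolism from respiration towards glycolysis. NCoR and SMRT bind HDAC3 and switch on its deacetylase activity, and the study asked whether they stand in the way of reprogramming together with c-MYC.

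The promoters of 9 members show the range of patterns described below, with letters from RefSeq (GRCm38.p6, whose coordinates are those of mm10, the build of the peak lists). Each stretch runs 5′ to 3′ on the gene's own strand, from 150 bases before the annotated start to 20 bases after it, so that it holds the core promoter and the first bases of the first exon. Capitals mark matches, on either strand, to 6 motifs, namely the palindromic NRF1 site, CCGGAAG for ETS factors such as GABP, AAGATGGC for YY1, TNAAGGTCA for ERR, GGGCGG for SP factors and CACGTG for the MYC E-box. Ndufa10 (chr1:92473739-92473908, minus strand) and Uqcrc1 (chr9:108936498-108936667, plus strand) had NCoR and SMRT peaks both at day 9 and in ESCs. Ndufs3 (chr2:90904702-90904871, minus strand) and Uqcrfs1 (chr13:30545297-30545466, minus strand) had them at day 9 only. Sdha (chr13:74350221-74350390, minus strand) and Atp5g2 (chr15:102671028-102671197, minus strand) had them in ESCs only. Sdhd (chr9:50603830-50603999, minus strand) and Atp5b (chr10:128083157-128083326, plus strand) carried H3K27ac in all 8 lists and neither co-repressor. Cox8b (chr7:140900427-140900596, minus strand), a muscle and brown fat isoform, had no peak of any kind.
Ndufa10: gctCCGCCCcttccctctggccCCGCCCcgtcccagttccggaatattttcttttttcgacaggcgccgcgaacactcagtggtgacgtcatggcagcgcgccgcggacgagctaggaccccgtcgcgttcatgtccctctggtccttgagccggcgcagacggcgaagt
Uqcrc1: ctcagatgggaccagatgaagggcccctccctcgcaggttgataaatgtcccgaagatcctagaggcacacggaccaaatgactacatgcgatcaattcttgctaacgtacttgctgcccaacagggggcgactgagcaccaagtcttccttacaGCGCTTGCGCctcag
Ndufs3: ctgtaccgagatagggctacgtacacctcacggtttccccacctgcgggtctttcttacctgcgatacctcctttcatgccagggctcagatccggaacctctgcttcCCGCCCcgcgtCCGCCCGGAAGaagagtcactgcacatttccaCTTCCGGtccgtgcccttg
Uqcrfs1: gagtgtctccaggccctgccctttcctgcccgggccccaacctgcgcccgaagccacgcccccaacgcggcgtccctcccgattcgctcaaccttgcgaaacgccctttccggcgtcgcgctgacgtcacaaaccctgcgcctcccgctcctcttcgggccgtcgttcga
Sdha: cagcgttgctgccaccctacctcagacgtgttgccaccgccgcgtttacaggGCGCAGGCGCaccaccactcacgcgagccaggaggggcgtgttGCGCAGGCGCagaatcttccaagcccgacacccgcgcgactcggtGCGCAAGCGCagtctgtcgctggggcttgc
Atp5g2: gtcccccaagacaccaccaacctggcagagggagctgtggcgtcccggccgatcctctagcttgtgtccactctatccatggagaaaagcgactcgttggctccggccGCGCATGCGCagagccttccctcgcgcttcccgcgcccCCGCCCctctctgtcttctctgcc
Sdhd: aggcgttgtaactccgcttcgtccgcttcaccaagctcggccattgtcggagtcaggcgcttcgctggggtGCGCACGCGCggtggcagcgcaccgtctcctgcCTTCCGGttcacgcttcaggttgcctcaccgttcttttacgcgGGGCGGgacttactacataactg
Atp5b: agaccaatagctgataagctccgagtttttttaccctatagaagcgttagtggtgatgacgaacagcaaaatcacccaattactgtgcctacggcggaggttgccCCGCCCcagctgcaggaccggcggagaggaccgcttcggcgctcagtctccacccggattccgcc
Cox8b: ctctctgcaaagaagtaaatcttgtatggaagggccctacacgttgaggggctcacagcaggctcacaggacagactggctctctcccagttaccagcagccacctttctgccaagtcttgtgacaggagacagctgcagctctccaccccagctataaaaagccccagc

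Sdha held 3 matches to the NRF1 motif, whose first bases lay 98, 55 and 10 bases before the start in the printed stretch, and Sdhd held 1 match each to the NRF1, ETS and SP motifs. The Ndufs3 stretch held 2 ETS matches, of which the upstream one shares bases with an SP match, and the Cox8b and Uqcrfs1 stretches held none of the 6. Atp5b, the catalytic β subunit of ATP synthase, held only an SP match here. The search over all promoters is given further down.

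H3K27ac stood at the ends of most oxidative phosphorylation genes in every library. In ESCs 85 of the 96 members had a peak (88.5%, 95% Wilson interval 80.6 to 93.5%), where 48.6% of all protein-coding genes had one. In MEFs 84 members did (87.5%, 79.4 to 92.7%), against 48.2% of all genes. At day 5, 80 members were marked in HDAC3-YF cultures and 82 in FLAG cultures, beside 40.8% and 42.2% of all genes. At day 9 the counts were 80 with HDAC3-YF and 79 with FLAG, beside 42.1% and 43.1%. At day 13 they were 74 with HDAC3-YF and 76 with FLAG, beside 43.9% and 42.6%. Thus the members' share was lowest in the day 13 lists, which were not the lowest over all genes. Mitochondrial ribosomal protein genes shared this low, with 78.2% in both arms at day 13. Acetylated genes at large and proteasome genes did not share it in both arms. Genes with H3K27ac in both ESCs and MEFs stood at 89.2% with HDAC3-YF and 88.0% with FLAG at day 13, and at 88.2% to 91.4% at days 5 and 9. The members among them stood at 88.0% with HDAC3-YF and 89.2% with FLAG at day 13. At day 5 these members stood at 95.2% with HDAC3-YF and 97.6% with FLAG, and at day 9 at 95.2% and 94.0%. Proteasome subunit genes stood at 90% with HDAC3-YF and 85% with FLAG at day 13, and at 87.5% and 85% at day 5.

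**Figure D1:**
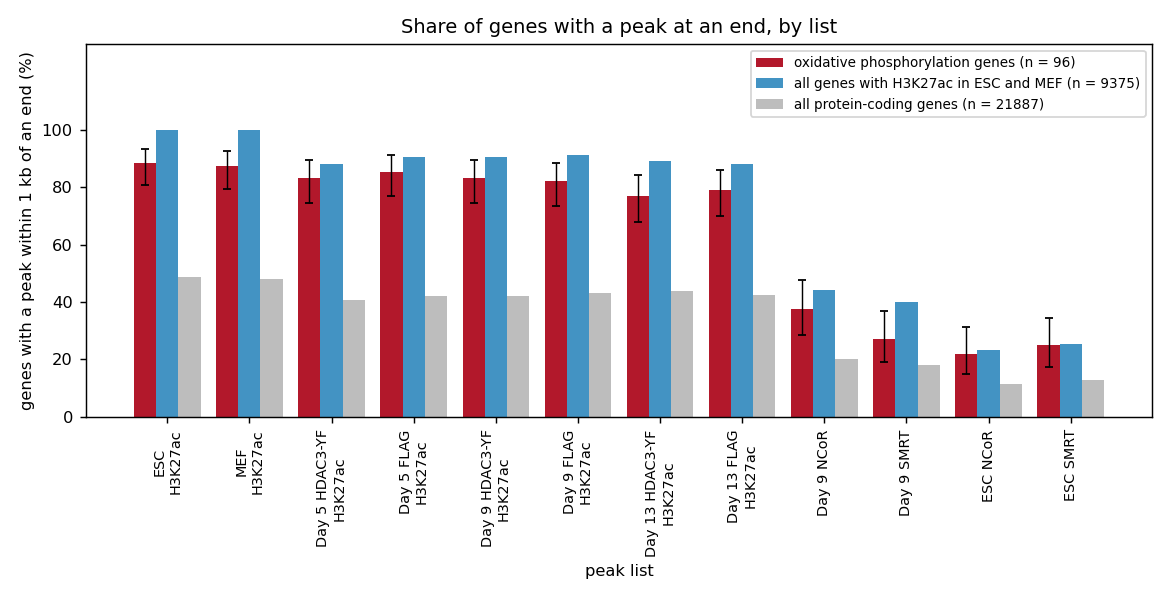
Share of genes (%) with a peak within 1 kb of an end in each of the 12 lists, for the 96 oxidative phosphorylation genes (red, with 95% Wilson intervals that cover the counting of genes only), for the 9375 protein-coding genes with H3K27ac in both ESCs and MEFs (blue, 100% in those lists by their choice) and for all 21887 protein-coding genes (grey). The red bars stand between 77.1% and 88.5% for H3K27ac, above the grey bars (40.8% to 48.6%). They stand below the blue ones (88.0% to 91.4% in the OSKM lists), but they include members unmarked in ESCs or MEFs. The 83 members with H3K27ac in both ESCs and MEFs stood at 94.0% to 97.6% in the lists of days 5 and 9. At day 13 these 83 stood at 88.0% with HDAC3-YF and 89.2% with FLAG. For NCoR and SMRT the red bars stand between 21.9% and 37.5%.

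The same members were marked again and again. H3K27ac was present in all 8 lists at 66 of the 96 genes (68.8%, 58.9 to 77.1%, against 32.7% of all genes), in 7 lists at 10, in 6 at 3, in 5 at 3, in 1 to 4 at 5 and in none at 9 (42.9% of all genes). Part of this standing belongs to active genes in general. Among genes marked in both ESCs and MEFs, 66 of 83 members (79.5%, 69.6 to 86.8%) were marked in all 8 lists, and so were 76.4% of the 9375 protein-coding genes of that kind. The mitochondrial ribosomal protein genes, another nuclear set for the organelle, gave 82.1% on that scale and the proteasome subunit genes 91.2%. A member usually carried a single 200 bp interval. Exactly 1 peak was found at 635 of the marked gene and list pairs and 2 or more at 5, so that 99.2% of the pairs had 1, where 96.5% of all such pairs over protein-coding genes did.

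By complex, ATP synthase and complex II were marked most evenly. All 4 complex II genes and 16 of the 17 ATP synthase genes had H3K27ac in all 8 lists. The count was 5 of 7 for the nuclear core subunits of complex I, 24 of 30 for its accessory subunits, 5 of 8 for its assembly factors, 5 of 8 for complex III and 7 of 12 for the common subunits of complex IV. None of the 10 tissue-restricted isoforms and extra gene copies reached 8 lists.

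**Figure D2:**
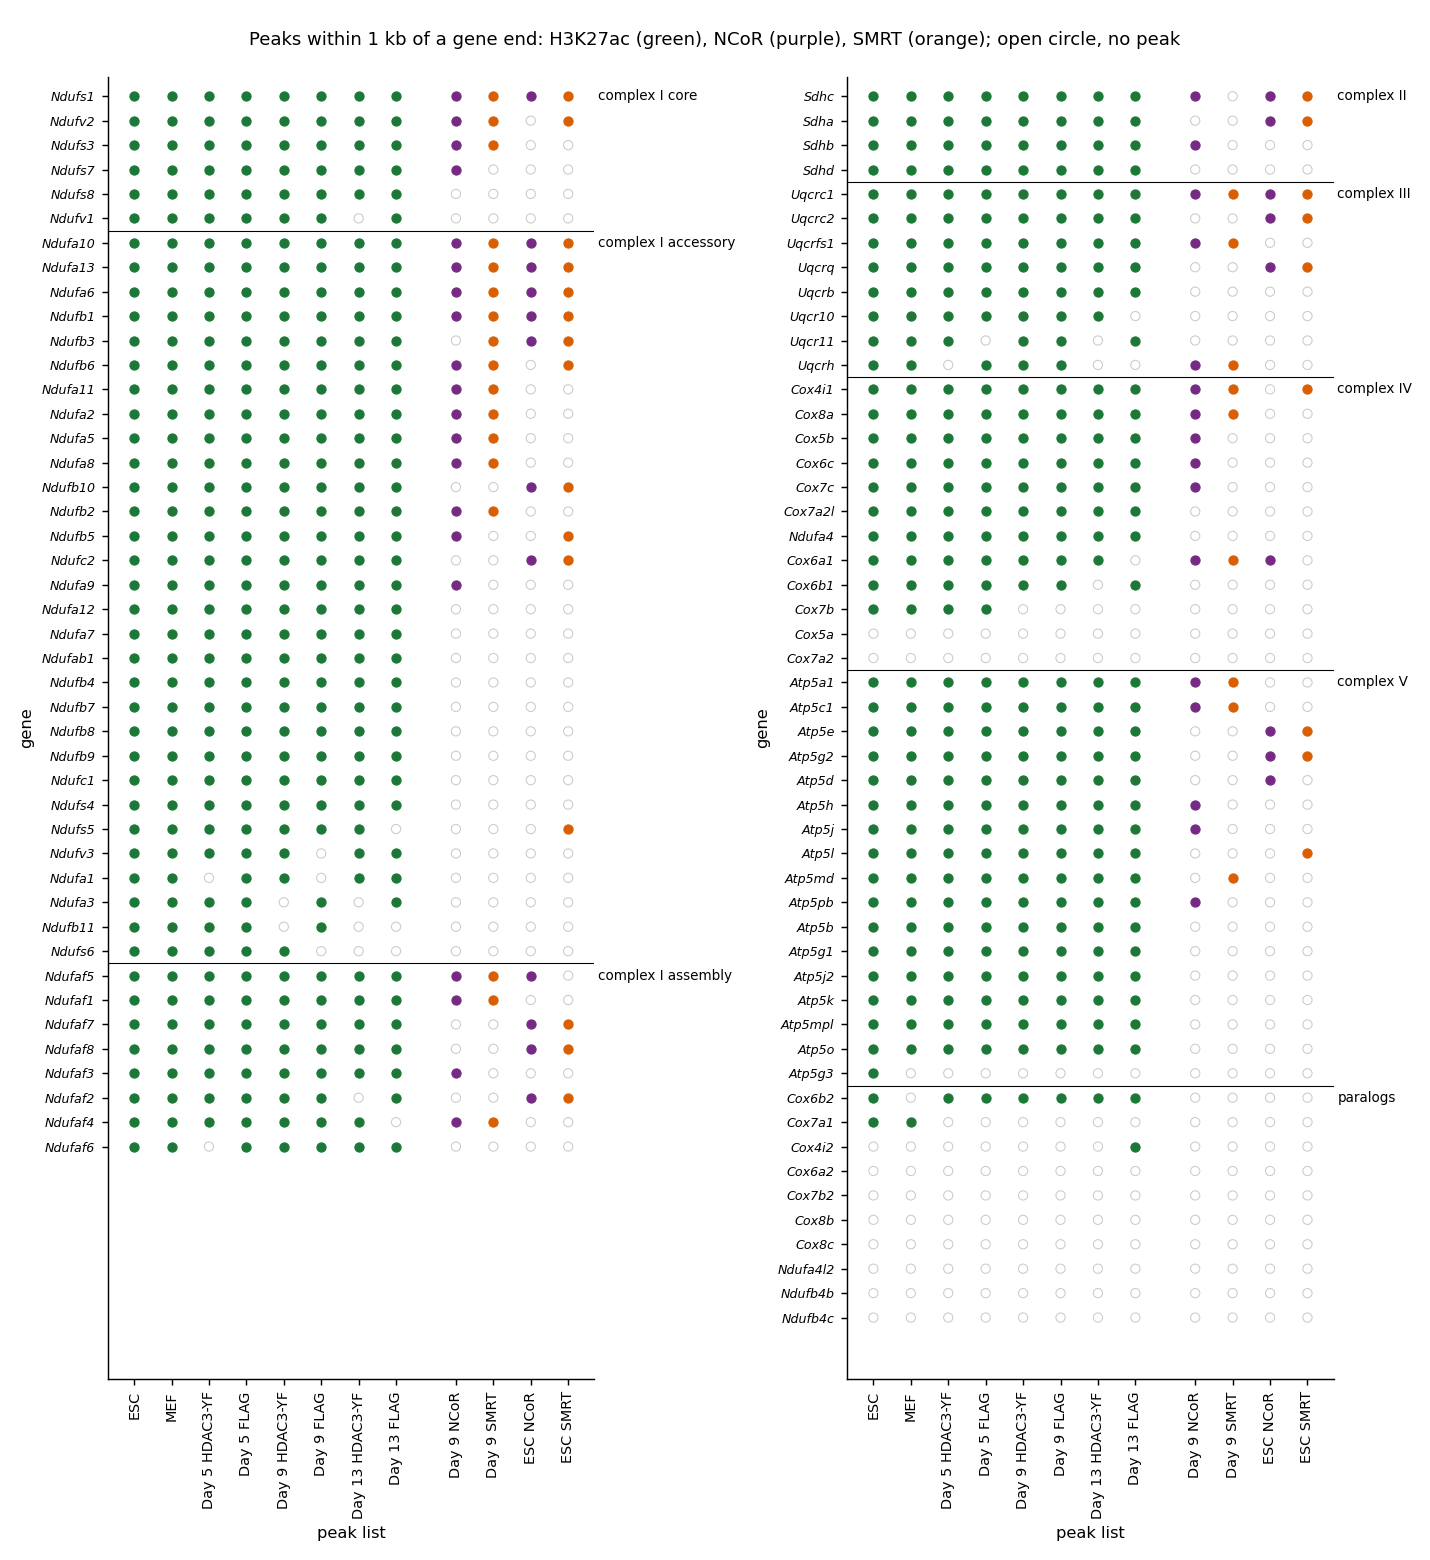
Presence of a peak within 1 kb of a gene end (filled circle) or its absence (open circle) for 95 of the 96 genes (rows, grouped by complex) in the 8 H3K27ac lists (green) and in the NCoR (purple) and SMRT (orange) lists (columns). Green columns are nearly full except for the 10 isoforms and extra copies, while NCoR and SMRT fill 38 rows at day 9 and 27 in ESCs.

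The members without a mark were mainly isoforms of other tissues. Cox4i2 (a lung and hypoxia isoform of subunit 4), Cox6a2 and Cox8b (heart and muscle), Cox7b2 and Cox8c (testis), Ndufa4l2 (induced by hypoxia) and the extra copies Ndufb4b and Ndufb4c had no H3K27ac peak at an end in ESCs or MEFs, and of these 8 genes, Cox4i2 alone had a peak in any OSKM list, with the authors' score of 7.46 in the day 13 FLAG list, whose lowest score is 6.68. The deposited H3K27ac score has no stated scale, starts at 6.22 and stops at a ceiling of 200, and serves below only to place a peak within its own list. Their common partners were marked. Cox4i1, Cox8a and Ndufa4 had a peak in all 8 lists, Cox6a1 and Cox6b1 in 7, and Cox7a2l, which joins complexes III and IV into supercomplexes, in all 8. Cox7a1, the heart and muscle isoform of subunit 7a, had a peak in ESCs (score 9.25) and MEFs (score 6.38) and in no OSKM list.

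Cox5a and Cox7a2, common subunits of complex IV, were the other unmarked members, and their open circles come from the gene-end rule. Their annotated ends lie far from the start in the promoter table, and in all 8 lists each had a peak inside the gene, 3502 to 4294 bp from an end at Cox5a and 4431 to 4631 bp at Cox7a2. The rule also left out peaks inside 2 of the isoforms, which have no start in the promoter table. Ndufa4l2 had one in ESCs (3089 bp from an end, score 26.83) and in MEFs (2824 bp, score 11.66). Cox4i2 had one in the day 9 FLAG list (4697 bp, score 8.72). At the 78 members with a start in the promoter table, H3K27ac lay within 1 kb of the start in ESCs at 75 and in MEFs at 74, and at 58 in all 8 lists. The 3 without it in any list were Cox7b2, Cox8b and Ndufb4b. With any peak in the gene or within 1 kb of it, 89 members were marked in ESCs and 88 in MEFs (57.6% and 57.8% of all genes), and 71 in all 8 lists. This wider count was chosen after the values were seen.

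ESCs and MEFs, the pluripotent cells and the fibroblasts that reprogramming starts from, differed at few members. Atp5g3 and Cox6b2 had a peak in ESCs only (5.75% of all genes did), and 83 members had a peak in both (42.8% of all genes). The difference in share was 1.04 percentage points, ESCs minus MEFs, with an interval of -2.49 to 4.57. The call for Atp5g3, which encodes the c subunit of the ATP synthase rotor, came from a separate peak at its 3′ end, 980 bp from that end with a score of 7.32, in ESCs. At its start Atp5g3 had H3K27ac in all 8 lists, 209 bp after the start in ESCs, 158 bp in MEFs and 80 to 264 bp in the OSKM lists, which the gene-end rule missed because the annotated end lies farther upstream.

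Cox6b2, the testis isoform of subunit 6b, was the exception with a distinct pattern, and its promoter (chr7:4753075-4753244, minus strand, RefSeq GRCm38.p6) is printed because of it, with no match to the 6 motifs in this stretch.
Cox6b2: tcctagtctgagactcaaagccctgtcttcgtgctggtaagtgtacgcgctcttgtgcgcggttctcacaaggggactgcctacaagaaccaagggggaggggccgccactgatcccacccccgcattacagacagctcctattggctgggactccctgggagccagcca
Its ESC peak stood at the score ceiling of 200. In MEFs no peak lay closer than 11302 bp to either end of the gene. All 6 OSKM lists had a peak again, with scores of 42.39 with HDAC3-YF and 50.2 with FLAG at day 5, 42.48 with HDAC3-YF and 16.91 with FLAG at day 9, and 18.81 with HDAC3-YF and 12.54 with FLAG at day 13. The peak centres of the OSKM lists lay 540 to 720 bp after the start and that of ESCs 817 bp after it. They thus lay inside the gene and outside the printed stretch. An end of Fam71e2 lies within 1 kb of Cox6b2, so the peak cannot be given to 1 of these genes. Which cells of the OSKM cultures carried it was not tested. Over the marker lists of the cell types, 6 of 8 ESC genes had a peak in or near the gene in ESCs, 1 of 8 in MEFs, 1 of 8 at day 5 in both arms, 1 of 8 with HDAC3-YF and 2 of 8 with FLAG at day 9, and 4 of 8 with HDAC3-YF and 2 of 8 with FLAG at day 13.

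Among the 83 members marked in ESCs and MEFs, 17 were missing from 1 or more OSKM lists, and these had lower scores from the start. Their median score was 105.64 in ESCs and 109.55 in MEFs, while the 66 members found in all 8 lists had a median of 200 in both. In ESCs 3 of the 17 and 51 of the 66 stood at the ceiling of 200, and in MEFs 5 of the 17 and 57 of the 66 did. Cox7b, a complex IV subunit, had scores of 63.25 in ESCs, 42.42 in MEFs, 11.65 with HDAC3-YF and 12.08 with FLAG at day 5, and no peak in any list of days 9 and 13. Ndufb11, an accessory subunit of complex I, had 46.3 in ESCs, 34.94 in MEFs, 8.76 with HDAC3-YF and 8.0 with FLAG at day 5, no peak with HDAC3-YF and 8.69 with FLAG at day 9, and no peak at day 13. Ndufa1, a small accessory subunit, had a peak in 4 of the 6 OSKM lists. These 3 genes are the X-linked members, and they were grouped after their values were seen. All 3 were missing from at least 1 OSKM list, while 82.5% of the 80 other members marked in ESCs and MEFs were in all 6. The same lean was present over all genes, where 44.4% of 266 X-linked genes and 77.3% of 9109 other genes marked in ESCs and MEFs had a peak in all 6 OSKM lists. The part of the score in this was not tested.

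In the OSKM lists the members' peaks stood less often at the ceiling than gene-end peaks at large, whereas in ESCs and MEFs they stood there more often. A score of 200 was reached by 63.2% of the members' peaks in ESCs, against 48.1% of all peaks at gene ends, and by 72.1% against 55.7% in MEFs. At day 5 the shares were 5% (4 peaks) against 15.5% with HDAC3-YF and 13.3% (11 peaks) against 18.6% with FLAG. At day 9 they were 8.75% (7 peaks) against 15.7% with HDAC3-YF and 11.4% (9 peaks) against 16.2% with FLAG. At day 13 they were 1.35% against 2.60% with HDAC3-YF and 1.32% against 2.35% with FLAG, each from 1 member peak. The OSKM shares thus rest on few peaks. The members' median score was still above the gene-end median in each OSKM list, for example 61.8 against 51.8 with HDAC3-YF and 65.9 against 56.4 with FLAG at day 5, and 28.2 against 24.6 with HDAC3-YF and 28.4 against 23.8 with FLAG at day 13. Between 50.6% (day 5 FLAG) and 64.6% (day 9 FLAG) of the members' peaks lay above that median. The members thus spread over both sides of it and held few places at the top. Of the members, Ndufb1 was at 200 in all 8 lists.

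HDAC3-YF and FLAG cultures were compared day by day to see whether the deacetylase-null HDAC3 altered acetylation at these genes. Most members did not differ in the number of peaks, 79 of the 96 on all 3 days, and 17 differed on at least 1 day (17.7%, against 18.2% of all genes). At day 5, HDAC3-YF cultures had more peaks at 1 member and fewer at 4 (2.52% and 3.92% of all genes). At day 9 they had more at 3 and fewer at 2 (3.02% and 4.1%), and at day 13 more at 4 and fewer at 6 (6.05% and 4.66%). The share of marked members, HDAC3-YF minus FLAG, differed by -2.08 percentage points at day 5 (-6.15 to 1.98), 1.04 at day 9 (-3.52 to 5.60) and -2.08 at day 13 (-8.53 to 4.36). All 3 intervals span 0. Over all genes these differences were -1.43, -0.969 and 1.38 points.

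Few of the differences recurred. Ndufa3, an accessory subunit of complex I, was the only member with fewer peaks under HDAC3-YF at 2 days and more at none (1.61% of all genes), and no member had more at 2 days and fewer at none (1.09%). At Ndufa3 the score was 34.78 with HDAC3-YF and 16.36 with FLAG at day 5. The nearest HDAC3-YF peak lay 9561 bp from the gene at day 9, where FLAG had a peak with a score of 10.08, and 9679 bp from it at day 13, where FLAG had one with a score of 8.96. Ndufa1 had a peak in FLAG only at day 5 and in HDAC3-YF only at day 9, and Uqcr11, a small subunit of complex III, in HDAC3-YF only at day 5 and in FLAG only at day 13.

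Nearly all members marked in 1 arm only had a low-scoring peak. No such share over all genes is given here, so this cannot be called particular to the members. Over the 3 days there were 19 such pairs of gene and day, and in 18 the peak scored below the median of gene-end peaks in its list, between 7.46 and 29.83. The other pair was Uqcrh, the hinge subunit of complex III, whose peak scored 200 with FLAG at day 5. In the HDAC3-YF list of that day a peak of the same score lay 1036 bp from the gene, just past the 1 kb limit. The Uqcrh peak lies on the side of its divergent neighbour Lrrc41 and had its centre 687 bp from the gene in ESCs, 981 bp in MEFs, 1113 bp with HDAC3-YF and 1199 bp with FLAG at day 13, so its missing circles at days 5 and 13 come from the limit and not from a missing peak. Of the genes marked in either arm, both arms marked 95.2% of the members at day 5, 93.9% at day 9 and 87.5% at day 13, against 87.4%, 86.7% and 79.8% over all genes.

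The next comparison asks how often the co-repressors themselves sat at these genes. At day 9 of reprogramming 38 of the 96 members had an NCoR or SMRT peak at an end (39.6%, 30.4 to 49.6%), against 21.5% of all genes, and in ESCs 27 did (28.1%, 20.1 to 37.8%), against 14.2%. The difference, day 9 minus ESCs, was 11.5 percentage points with an interval of -0.747 to 23.7, and 7.30 points over all genes. NCoR was at 36 members and SMRT at 26 at day 9 (20% and 18.2% of all genes), and NCoR at 21 and SMRT at 24 in ESCs (11.3% and 12.6%). The members' shares lay close to those of other acetylated genes. Among genes marked in ESCs and MEFs, a day 9 site was present at 45.8% of the 83 members and at 47.2% of the 9375 protein-coding genes, and an ESC site at 32.5% and 28.5%. Mitochondrial ribosomal protein genes had a day 9 site at 55.2% and an ESC site at 17.9% on the same scale, and proteasome genes at 47.1% in both.

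The genes behind the counts in the 2 cell populations were partly different. An NCoR or SMRT peak was present at day 9 and in ESCs at 14 members (7.84% of all genes), at day 9 only at 24 (13.7%), in ESCs only at 13 (6.38%) and in neither at 45 (72.1%). Over all genes 1717 had a site in both populations, out of 4710 with a day 9 site and 3113 with an ESC site. The 14 are 36.8% of the day 9 members and 51.9% of the ESC members, near the overlap over all genes. All 4 lists marked 6 of them, the complex I genes Ndufs1 (the largest subunit of the complex), Ndufa6, Ndufa10, Ndufa13 and Ndufb1, and Uqcrc1, a core subunit of complex III. At Uqcrc1 (chr9:108936648-108949641) the shared NCoR and SMRT interval lay 62 bp after the start at day 9 and 188 bp after it in ESCs. At Ndufa10 (chr1:92439486-92473825) it lay 65 bp before the start at day 9 and 240 bp after it in ESCs, and at Ndufb1 (chr12:101968096-101975738) 323 bp before the start at day 9 and 378 bp before it in ESCs. Over the 14 genes the nearest day 9 and ESC centres were a median of 155.5 bp apart, and 8 pairs lay within 200 bp. At Cox4i1 and Ndufb6 the populations had their peaks at opposite ends of the gene, 5388 and 9498 bp apart.

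**Figure D3:**
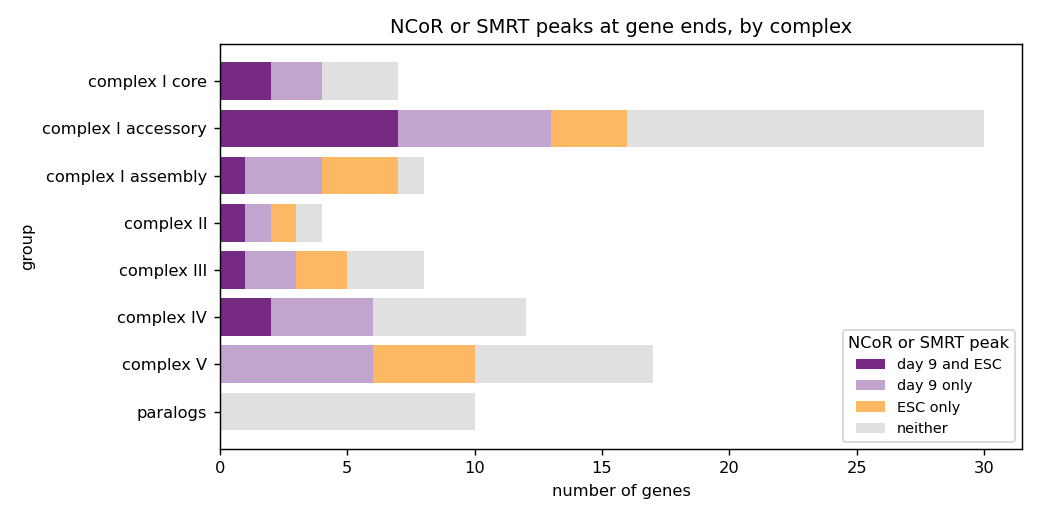
Number of genes per complex with an NCoR or SMRT peak within 1 kb of an end at day 9 and in ESCs (dark purple), at day 9 only (light purple), in ESCs only (orange) or in neither (grey). By this rule ATP synthase has 6 day 9 genes and 4 ESC genes and none with both (Atp5g3, counted under neither, has NCoR and SMRT at its start in both populations), and the 10 isoforms and extra copies have none at all.

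By complex, co-repressor peaks were spread over the whole chain. Of the nuclear core subunits of complex I, 4 of 7 were occupied at day 9 and 2 in ESCs, and of its accessory subunits 13 of 30 and 10. Of its assembly factors 4 of 8 were occupied at day 9 and 4 in ESCs, and only Ndufaf6 had neither. In complex II, Sdha (the flavoprotein) had NCoR and SMRT in ESCs only, Sdhb (the iron-sulphur subunit) NCoR at day 9 only, Sdhc (a membrane anchor) NCoR at day 9 and both in ESCs, and Sdhd (the other anchor) none. Complex III had 3 of 8 at day 9, among them Uqcrfs1, the Rieske iron-sulphur protein, and 3 in ESCs. Complex IV had 6 of 12 at day 9 and 2 in ESCs, namely Cox4i1 and Cox6a1, which were also among the 6. In ATP synthase the gene ends gave no gene shared by the populations. Atp5a1 (α subunit), Atp5c1 (γ), Atp5h (d), Atp5j (F6), Atp5pb (b) and Atp5md had a site at day 9 only, and Atp5d (δ), Atp5e (ε), Atp5g2 (c) and Atp5l (g) in ESCs only. None of the 10 isoforms and extra copies had either co-repressor.

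At the start in the promoter table, in place of the gene ends, the pattern was the same at 74 of the 78 members with a start. The exceptions touch the counts by complex. Atp5g3 had NCoR and SMRT at its start both at day 9 (129 bp after it) and in ESCs (286 bp after it), so ATP synthase did have a gene occupied in both populations. Cox5a had NCoR at day 9 (16 bp after the start) and both co-repressors in ESCs (186 bp after it), which adds a complex IV gene to both populations. Ndufb6 had only its ESC site at the start, and Atp5d had no site there.

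At day 9 more members had NCoR than SMRT. Of the 38 members with a day 9 site, 24 had both co-repressors (16.6% of all genes), 12 NCoR alone and 2, Ndufb3 and Atp5md, SMRT alone. NCoR alone was thus 31.6% of the members with a site, against 15.6% of all genes with one and 15.1% of those with H3K27ac in ESCs and MEFs. The proteasome genes gave 31.2%, 5 of 16, and the mitochondrial ribosomal protein genes 19.5%. Among genes with H3K27ac in ESCs and MEFs, NCoR at day 9 was at 43.4% of the members and 44.2% of protein-coding genes, while SMRT was at 31.3% and 40.1%. The 12 were Cox5b, Cox6c, Cox7c, Sdhb, Sdhc, Ndufa9, Ndufb5, Ndufs7, Ndufaf3, Atp5h, Atp5j and Atp5pb. For Atp5j this holds at the gene ends only, since NCoR and SMRT shared a day 9 interval 315 bp after a start of the gene. Cox5a, not among the 12, had NCoR alone at its start at day 9. The share of members with NCoR minus that with SMRT was 10.4 points at day 9 (3.07 to 17.8), where NCoR alone was at 3.37% and SMRT alone at 1.54% of all genes and the difference was 1.83 points. In ESCs it was -3.12 points (-9.22 to 2.97), with 18 members with both (9.75% of all genes), 3 with NCoR alone and 6 with SMRT alone (1.59% and 2.89%), so the lean was not found there. The signed score that the authors give to both lists of a population is the same wherever the lists share an interval, at 4003 of 4003 such intervals at day 9 and 2743 of 2743 in ESCs, so it is not a height of either factor. At the members it had a median of 0.495 at day 9, where it was above 0 at 71.8% of 39 intervals against 57.8% of all, and of -0.191 in ESCs, where it was above 0 at 42.9% of 28 against 44.2%. The NCoR lists hold no score below -1 and the SMRT lists none above 1, so this lean and the count of NCoR alone are 1 observation. At day 9 the score was highest at Ndufa13 (2.72) and lowest at Atp5md (-1.34).

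Co-repressors were found where acetylation was steady. An NCoR or SMRT peak in either population was present at 46 of the 66 members with H3K27ac in all 8 lists (69.7%), at 5 of the 17 marked in ESCs and MEFs but missing from an OSKM list (29.4%) and at none of the other 13, although Atp5g3 and Cox5a among these had them at the start. Protein-coding genes of the same kinds gave 66.8% of 7160 and 28.8% of 2215. The members followed the pattern of all acetylated genes to within a few points. These classes were set after the values were seen.

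Position was measured from the start at the 78 members with an entry in the promoter table. H3K27ac peaks lay just downstream of the start, with a median of 104 bp over 75 peaks in ESCs and 103.5 bp over 74 peaks in MEFs, where all genes gave 146 and 159 bp. Day 9 NCoR peaks centred near the start itself. Their median was 16 bp over 33 peaks (107 bp over all genes), 63.6% of them within 200 bp of the start (56.8% of such peaks over all genes). Day 9 SMRT peaks had a median of 84 bp over 23 peaks (121 bp over all genes), 65.2% within 200 bp (54.0%). ESC peaks lay farther downstream, at a median of 173.5 bp over 18 NCoR peaks and 187 bp over 22 SMRT peaks. Over all genes they did so too, at 189 and 194.5 bp. Of the members' ESC peaks, 33.3% and 27.3% lay within 200 bp of the start (37.5% and 35.7% over all genes). Since the lists of a population share most intervals, NCoR and SMRT are not independent here.

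**Figure D4:**
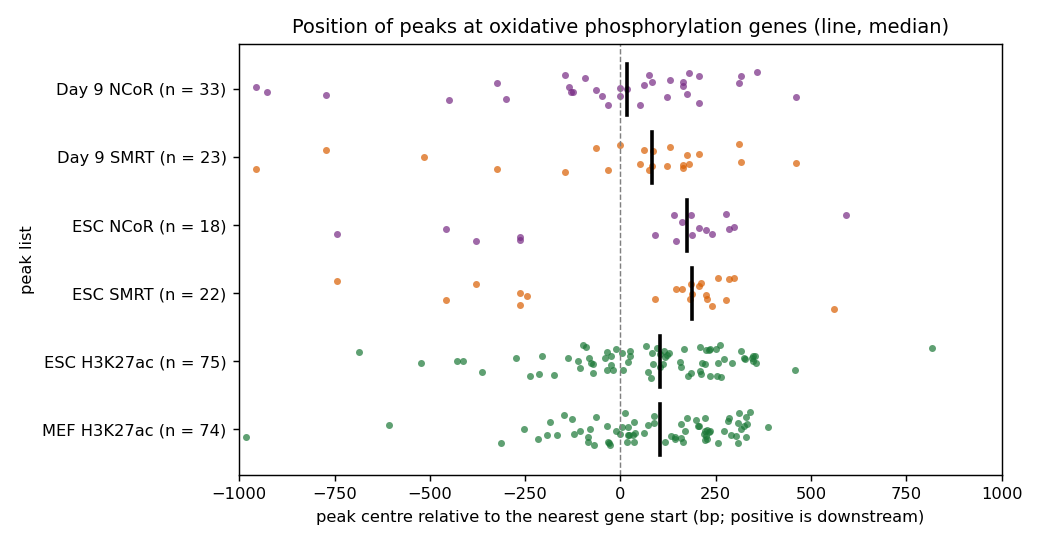
Distance in bp from the gene start to the centre of each NCoR (purple), SMRT (orange) and H3K27ac (green) peak within 1 kb of a start at the 78 members with a known start, with vertical lines at the medians; vertical scatter within a row has no meaning. The medians lie at 16 and 84 bp for NCoR and SMRT at day 9, 173.5 and 187 bp in ESCs, and 104 and 103.5 bp for H3K27ac in ESCs and MEFs.

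Acetylation kept its place across the libraries. At the 63 members with exactly 1 H3K27ac peak in each of the 8 lists, the 8 centres spanned a median of 189 bp (83 to 833 bp), which is about the 200 bp width of a deposited interval, and at 35 they lay within 200 bp. Ndufs3 had its 8 centres between 42 bp before and 104 bp after the start, Sdha between 33 bp before and 127 bp after it, and Atp5b between 229 and 365 bp after it. At Sdhd all 8 lay 23 to 225 bp before the start, on the side of the divergent gene Timm8b. For each gene, the median co-repressor centre, pooled over day 9 and ESCs, was set beside the median H3K27ac centre of the 8 lists. These pooled centres were close, with a median of 134 bp over the 44 such members with a co-repressor peak and 27 of the 44 within 200 bp. They do not give a distance within 1 population. No value over all genes stands beside these distances or the spans above, so neither can be called particular to the members. At Ndufs3 the pooled centres were 5 bp apart. The widest gap was at Ndufb6, where the day 9 site lay 9724 bp downstream of the start, at the other end of the gene. That gap holds for the day 9 site only, since the ESC SMRT peak of Ndufb6 lay 226 bp after the start. Smim27 and Topors also have an end within 1 kb of an end of Ndufb6.

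Many of these promoters are shared. Another protein-coding gene has an end within 1 kb of an end of 54 of the 96 members (56.2%, against 24.8% of all genes). Of the 78 members with a known start, 24 (30.8%) have a partner on the other strand whose start lies up to 1 kb upstream or less than 200 bp downstream of theirs. This holds for 8.82% of all genes with a start and for 18% of those with H3K27ac in ESCs and MEFs. Among the pairs are Ndufs3 and Kbtbd4, Sdha and Ccdc127, Sdhd and Timm8b (an import chaperone of mitochondria), Ndufb5 and Mrpl47 (a mitochondrial ribosomal protein), Uqcrh and Lrrc41, and Atp5j and Gabpa, whose partner encodes the DNA-binding subunit of GABP. Co-repressor peaks in either population were at 18 of the 24 members with a partner (75%) and at 25 of the 54 without (46.3%). Of the members with H3K27ac in ESCs and MEFs these shares were 75% and 53.2% (25 of 47), and of all protein-coding genes with it 64.9% and 56.9%. A peak at such a promoter cannot be given to 1 gene of the pair.

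The promoters were searched for the 6 motifs over 300 bases, from 250 before to 50 after the start, and a match is a description of the letters only. NRF1 matches were found at 19 of the 78 members (24.4%), against 7.17% of the 17492 protein-coding genes in the table and 13.3% of the 7645 of them with H3K27ac in ESCs and MEFs. ETS matches were found at 19 (24.4%, against 12.9% and 22.8%) and YY1 matches at 11 (14.1%, against 3.57% and 5.96%). ERR matches were found at 3 (3.85%, against 1.19% and 0.772%). SP matches were found at 35 (44.9%), which is below the 49.2% of all genes and the 72.7% of acetylated genes, and the MYC E-box at 6 (7.69%, against 8.91% and 12.1%). The set thus held NRF1 and YY1 letters more often, and SP letters less often, than acetylated promoters at large. Median GC content was 58.5% at the members, 56.3% over all genes and 62% over acetylated ones.

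Co-repressor pattern and motif did not line up in a simple way. Counted by co-repressor peaks within 1 kb of the start, NRF1 matches were at 5 of 12 members with a site in both populations, 6 of 21 with one at day 9 only, 3 of 11 with one in ESCs only and 5 of 34 with none. ETS matches were at 1, 8, 4 and 6 of these groups, and YY1 matches at 0, 4, 1 and 6. The MYC E-box, of interest because c-MYC is among the introduced factors, was at 1 of 12, 1 of 21, 1 of 11 and 3 of 34. Of the 3 members with an ERR match, Atp5g3 had NCoR and SMRT at its start in both populations, and Ndufb4 and Sdhd had no co-repressor site. Median GC content was 62.5% at members with a site in both populations, 60% at day 9 only and at ESC only, and 55.2% with none, so base composition runs alongside the pattern and its part was not tested.

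Other genes of the pathway were counted from lists. Of 33 listed assembly factors and electron carriers, 32 had H3K27ac at an end in ESCs and 32 in MEFs (48.6% and 48.2% of all genes). Atpaf2 was the exception in both, and 27 had it in all 8 lists (32.7% of all genes). A day 9 site was present at 20 of the 33 and an ESC site at 9, and every one of the 9 had a day 9 site as well. Day 9 and ESC sites were at 21.5% and 14.2% of all genes. Among genes with H3K27ac in ESCs and MEFs they were at 47.2% and 28.5%, and these shares also serve for the regulators below. Cycs (cytochrome c), Cox15 (haem A synthesis), Cox18 (an insertase for a complex IV subunit), Ttc19 (a complex III factor) and Atpaf1 (an assembly factor of ATP synthase) had both co-repressors in both populations, as did Sdhaf2 (an assembly factor of complex II), while Surf1, Cox16 and Acad9 had none. Of 16 listed regulators of mitochondrial biogenesis, 11 had H3K27ac at an end in ESCs and 11 in MEFs. Sites at day 9 were at 8 of the 16, which were Nrf1, Gabpa, Gabpb2, Yy1, Pprc1 (a coactivator), Polrmt (the mitochondrial RNA polymerase), Tfb2m (its initiation factor) and Nfe2l2, and ESC sites at 2 of these, Tfb2m and Nfe2l2. The coactivator genes Ppargc1a and Ppargc1b had no peak of any kind at an end. Esrrb, an ESC marker, had 0 peaks at its ends although 11 ESC peaks lay in or near the gene, so a missing end peak does not show a silent gene.

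Facts of the libraries bear on these counts. For H3K27ac there were 25499 peaks listed for ESCs, 26591 for MEFs and 14251 to 16944 for the OSKM cultures, and no source used here gives the read depth. Of the ESC NCoR and SMRT peaks, 14% and 13.9% lay on chromosome 8, against 5.62% and 5.80% at day 9, and 3 members (Ndufa13, Ndufb7 and Cox4i1) lie there. Without that chromosome a co-repressor site was at 38.7% of the members at day 9 and at 26.9% in ESCs. The labels of ESCs and MEFs stood by their markers. The summed H3K27ac peaks at 8 ESC marker genes were 25 in ESCs, 2 in MEFs and 2 to 5 in OSKM lists, and those at 8 fibroblast genes were 1 in ESCs, 24 in MEFs and 3 to 15 in OSKM lists. At 4 endothelial genes the sums were 5 in ESCs, 7 in MEFs and 2 to 8 in OSKM lists, and at 4 blood genes they were 4 in ESCs, 5 in MEFs and 0 to 1 in OSKM lists, with Ptprc at 0 in all 8. The ESC markers Dppa5a and Tdgf1 had no peak in ESCs. The part of these other cell types in the members' counts was not tested.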

How the data were processed

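The 13 mouse ChIP-seq libraries fall into 13 groups of 1 by their titles. Reads were aligned and peaks called with Bowtie2 2.2.0 and MACS 1.4 on mm10, the names and versions given in the submitters' processing notes, which add no settings. Each of the 12 peak lists was deposited as intervals of exactly 200 bp with a score per peak, whose scale the authors do not state. Depth is unknown, and no batch is named.

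Genes and starts came from RefSeq tables of GRCm38.p6, and 78 of the 96 members matched an entry with a start. A gene was marked where a peak centre lay within 1 kb of either end. Shares carry 95% Wilson intervals, and paired differences carry intervals from the genes marked in only 1 library. Python 3.11.15, pandas 2.3.3, numpy 2.4.6, statsmodels 0.14.6 and matplotlib 3.10.9 were used, and the counting was tested on simulated data. Members, gene lists and comparisons were chosen with earlier results of these data known. The genes named are those without H3K27ac in ESCs and MEFs, those marked in 1 of the cell types (1 gene is not reported here), those with recurrent HDAC3-YF differences, those in each co-repressor pattern, the Sdh genes and the listed isoforms. Other genes were named after their values were seen. The alternatives were other windows, score thresholds, list lengths, peak merging and subsets of members.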

Additional observations from a re-analysis of the deposited data

Results flagged for a closer look

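The HDAC3-YF minus FLAG difference in the share of members with H3K27ac did not keep 1 sign over the days. At day 5 it was -2.08 percentage points, the day 9 value was 1.04 and for day 13 it came to -2.08, from 1 library per arm and day. Whether the days differ was not tested. The intervals of all 3 values span 0, and the day 9 and day 13 values change sign in the upper 50% of peaks by score.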

How the results depend on the processing

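Over 12 results and 12 alternatives, 94 of 114 values kept their direction and stayed within the interval of the reported value, 10 differences came to exactly 0, 5 values moved and 5 changed sign. Among the 10 are the HDAC3-YF minus FLAG differences of all 3 days without shared ends, that of day 5 in the 500 bp window, and ESCs minus MEFs in the 2.5 kb window. Counting at the gene start only, which leaves 78 members with an annotated start, gave 96.2% marked in ESCs and 94.9% in MEFs. Requiring both co-repressors gave a share of 25% at day 9 and 18.8% in ESCs, and leaving out members that share an end with another gene gave 19.0% in ESCs. With an equal number of 14251 peaks per list the ESC minus MEF difference was -1.04 points. In the upper 50% of each list by score, the HDAC3-YF minus FLAG difference was -6.25 points and -0.0625 peaks per member at day 9, and 5.21 points and 0.0521 peaks per member at day 13. The cause was not tested. No paired analysis was possible because each group has 1 library. Score thresholds were not run for NCoR and SMRT, whose score is not a height. Counts over the whole gene and without chromosome 8 were added after the data were seen. Unknown depth limits every statement that a peak is missing.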
